A study of Drosophila melanogaster with 48 samples.

Results

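The heads of male *Drosophila melanogaster* that carried a deletion in the 3′ UTR of *MtnA* were compared with those of flies without it, after both had been kept on food with menadione sodium bisulfite (MSB), a compound that generates superoxide. The comparison took the 15 stress libraries of the 8 lines from outside Zambia, out of 48 libraries in the series, and set 8 libraries of 4 deletion lines (M12D3, M9D3, C2D3 and KL01) against 7 libraries of 4 nondeletion lines (M12N3, M9N1, C2N1 and KL02). Each deletion line had a nondeletion partner of the same background, namely M12 and M9 from Munich in Germany, C2 from Nicosia in Cyprus and KL from Kuala Lumpur in Malaysia. The 16 libraries of the same lines kept on standard food served as controls, and each library held RNA of 60 heads pooled from flies aged 5 to 7 days. The Zambian lines, all of them without the deletion, served only as a reference for the response to MSB.

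All flies of the stress libraries had been on food with 75 mM MSB for 24 h and were alive when the heads were taken. In the 3 backgrounds M12, M9 and C2 both lines of a pair came out of 1 isofemale line in which the deletion had segregated, so they are close to isogenic but can differ elsewhere in the genome, and the study describes much residual polymorphism in M9. The KL pair consisted of separate isofemale lines, so a difference there cannot be told apart from any other difference between these lines. The deletion lies in a transcribed end of the gene that a count per gene does not show, so the count of *MtnA* could not check the genotype labels. One M9N1 stress library was left out by the rule that chose the libraries. Its level of 28 testis and accessory gland markers summed to 2649 CPM (counts scaled to a common library total), against 1.64 to 5.82 in the other 15 stress libraries.

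Metallothioneins are small cysteine-rich proteins that bind copper and zinc and can scavenge oxidants, and *MtnA* is a member of the fly family. Menadione is reduced inside cells and passes electrons to oxygen, which consumes glutathione and damages proteins. A 3′ UTR carries sites that control the stability and translation of a transcript, so an allele that lacks a stretch of it can change the amount of that transcript without changing the protein.

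Total counts ran from 29.4 to 53.9 M in the 15 stress libraries and from 27.2 to 55 M in the 16 controls. All 16 stress libraries, the left-out one included, resembled the controls of their own line more than those of any other line. Heads were the labelled tissue, and the 11 photoreceptor markers made up 54030 to 90390 CPM in the 15 stress libraries. Since the allele belongs to a line and not to a library, the comparison rests on 4 lines a genotype, and an exact sign-flip test over the 4 backgrounds could not give a two-sided p below 0.125. The p-values below come from edgeR's quasi-likelihood test with the background as a block, adjusted by Benjamini and Hochberg's method across every gene in the fit, and they measure the spread between libraries.

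Under stress, 221 of 10657 tested genes passed an adjusted p of 0.05, which is 2.07% of those tested. Of these, 174 genes (1.63%) were higher in the deletion lines and 47 (0.441%) were lower. The median difference was 0.67 on the log2 scale for the higher genes and −0.45 for the lower ones, and over all tested genes it was −0.01. A change of more than 1 log2 unit was seen in 58 of the called genes, 51 higher and 7 lower. With the left-out M9N1 library in the fit, 12 genes were called, 11 higher and 1 lower, and with deletion by treatment fitted on all 32 libraries 30 genes were called. On standard food the same contrast passed the test for 6 of 10321 genes (0.0581%), of which 5 (0.0484%) were higher and 1 (0.00969%) was lower, and 2 of these, *Whamy* and *dmt*, were also called under stress. The other 4 in the controls were *CG6026*, *Cpr72Ec* and *His2B:CG33890*, which were higher in the deletion lines, and *ouib*, which was lower. When the summed counts of each line replaced its libraries, no gene passed the edgeR test, 773 had an unadjusted p under 0.05 and the smallest adjusted p was 0.713. With limma and the line as a random block, 2 genes passed, *Whamy* and *CG15097*.

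*Whamy* gave the smallest p of the comparison. It encodes a WASP-family protein that promotes actin polymerisation through the Arp2/3 complex, and it lies on chromosome arm 3R (9771795 to 9774419, minus strand, BDGP6.54), with its midpoint 10.8 kb from that of *MtnA* (9783407 to 9784370, minus strand). Under stress its level was lowest at 7.71, at the median 11.6 and highest at 15.2 CPM in the 8 deletion libraries, and 1.25, 2.26 and 4.06 CPM in the 7 nondeletion libraries. No deletion library overlapped a nondeletion one. The difference was 2.30 on the log2 scale (SE 0.21, adjusted p = 0.000685). It was 3.02 in M12, 2.40 in C2, 2.32 in KL and 1.22 in M9, and in M9 alone it missed the threshold within the background (adjusted p = 0.0557). The controls ran from 1.54 to 3.73 CPM in the deletion lines and from 0.587 to 2.16 CPM in the nondeletion lines, a log2 difference of 0.77 (adjusted p = 0.0454). The difference under stress was larger than that in the controls by 1.49 log2 units (SE 0.19, adjusted p = 0.000598 for deletion by treatment). In the left-out M9N1 library, rich in testis transcripts, *Whamy* stood at 21.6 CPM, and with that library in the fit the log2 difference was 1.88 with an adjusted p of 0.135.

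The gene beside it, *topi*, a zinc-finger protein known from the meiotic arrest genes of the testis, starts 701 bases from the start of *Whamy* on the opposite strand (3R, 9775121 to 9777943). It was measured at 1.65 to 2.92 CPM in the stressed deletion libraries and at 0.227 to 1.33 CPM in the nondeletion libraries, again without overlap. The log2 difference was 1.74 (SE 0.24, adjusted p = 0.00845). In the controls it was 0.27 (adjusted p = 0.833), and the left-out library held 20.1 CPM.

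*dmt*, which encodes the cohesion protein Dalmatian and lies at 9711142 to 9714675 on 3R, differed by the same amount with and without MSB. Its level under stress ran from 13.1 to 22.8 CPM with a median of 17.4 in the deletion lines, and from 8.97 to 13.7 CPM with a median of 11.7 in the nondeletion lines. The groups overlapped only between KL01 and C2N1. The log2 difference was 0.52 (SE 0.08, adjusted p = 0.0128) under stress and 0.52 (adjusted p = 0.0344) in the controls, and deletion by treatment gave 0.03 (adjusted p = 0.924).

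Further genes within 0.5 Mb of *MtnA* were also called higher in the deletion lines. *Fst*, the cold-induced gene Frost, was close to 0 in all controls and reached 0.669 to 3.09 CPM in stressed deletion libraries against 0.0567 to 1.68 CPM in nondeletion libraries, where the highest value belonged to M9N1. It differed by 2.19 (SE 0.45, adjusted p = 0.0371), lies within *Dh44* on the other strand, and stood at 311 CPM in the left-out library. *CG12814* ran from 107 to 159 CPM in the deletion lines and from 55.0 to 127 CPM in the nondeletion lines (log2 difference 0.63, SE 0.12, adjusted p = 0.0264).

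These genes were looked at because of their place, after their values had been seen. In all, 6 genes were called, which is 4.55% of the 132 genes tested within 0.5 Mb of *MtnA*, and 4 of 84 genes (4.76%) were called from 0.5 to 1 Mb. The share was 2.12% of 236 genes from 1 to 2 Mb, 2.48% of 524 genes from 2 to 5 Mb and 1.65% of 1694 genes further along the arm. By arm the share was 2.1% on 3R, 2.63% on 2L, 2.13% on 2R, 1.66% on 3L and 1.9% on X, close to the 2.07% over all genes.

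**Figure D1:**
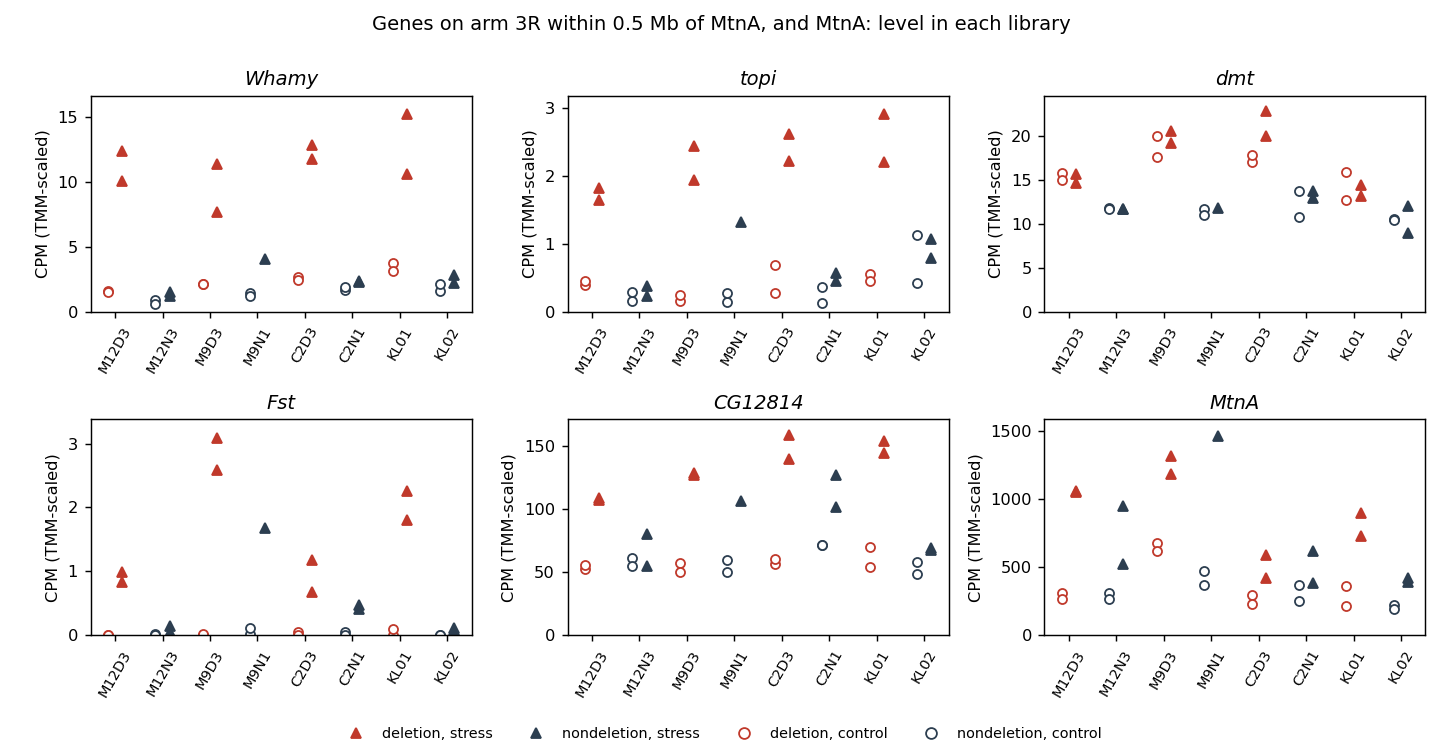
Level of *Whamy*, *topi*, *dmt*, *Fst*, *CG12814* and *MtnA* in each library (y axis, CPM after TMM scaling over the 31 libraries; x axis, the 8 lines in pairs), with triangles for stress, circles for controls, red for deletion and dark blue for nondeletion lines. Stressed deletion libraries of *Whamy* (7.71 to 15.2) lie above all nondeletion libraries (1.25 to 4.06), while those of *MtnA* (419 to 1320) overlap them (384 to 1460).

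*MtnA* itself did not pass the test. Under stress it was measured at 419 to 1320 CPM with a median of 973 in the deletion lines and at 384 to 1460 CPM with a median of 523 in the nondeletion lines. The highest library was M9N1, and the groups overlapped over most of their range. The log2 difference was 0.36 (SE 0.18, adjusted p = 0.274), made up of 0.96 in KL (adjusted p = 0.0245), 0.54 in M12, 0.01 in C2 and −0.24 in M9. It was 0.21 (adjusted p = 0.709) in the controls.

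Among the other metallothioneins, *MtnD*, *MtnE* and *MtnF* were tested and none was called, while *MtnB* and *MtnC* had too few counts. *MtnD* ran from 0.665 to 17.2 CPM in the deletion lines and from 1.14 to 15.3 CPM in the nondeletion lines. Its difference was 3.58 in M9 and −2.45 in KL, and neither passed within its background (adjusted p = 0.118 and 0.0608). *MtnE*, its neighbour on 3R, differed by 3.16 in M9 and −1.72 in KL. *MTF-1*, the transcription factor that induces metallothioneins in response to metals, was called at 0.24 (SE 0.06, adjusted p = 0.0463), from 39.4 to 56.3 CPM in the deletion lines against 27.9 to 51.7 CPM. It was the one called gene among 21 tested genes of copper and zinc handling (4.76%, against 1.63% of all genes called higher), whose median was 0.03.

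Of the 5 genes that the study's text names in this context, which were not chosen independently of these libraries, 4 were tested and none passed. The study named *CG31792* and *Prosalpha4T2* from coexpression with genotype and treatment in the design. The others were predicted microRNA targets, whose changes from control to stress it compared between genotypes as a set. The study's methods also describe a direct DESeq2 contrast of these targets by genotype under stress, outside Zambia. The contrast here takes single genes under stress with another test, so it does not repeat the coexpression or the set comparison. The RNA-editing enzyme gene *Adar* differed by −0.13 (adjusted p = 0.404), the phosphatase gene *alph* by 0.05 (adjusted p = 0.678) and the clock gene *per* by −0.29 (adjusted p = 0.433). *CG31792* differed by 0.92 (adjusted p = 0.0791), and *Prosalpha4T2* had too few counts to test. *prage*, which contains the whole of *Adar* on the same strand, was called at 0.79 (SE 0.11, adjusted p = 0.00845). Its libraries did not overlap, with 43.1 to 57.9 CPM in the deletion lines and 17.9 to 41.8 CPM in the others.

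The genes with the largest differences in the same direction in all 4 backgrounds were mostly uncharacterised. *CG14395* (3R) was measured at 5.05, 9.33 and 12.6 CPM (lowest, median and highest) in the stressed deletion libraries and at 0.476, 1.49 and 4.58 CPM in the nondeletion libraries. The groups did not overlap, and all controls were below 0.4 CPM. The log2 difference was 2.39 (SE 0.37, adjusted p = 0.0141). *CG31296* followed at 1.88, *CG43095* at 1.69, *CG31704* at 1.58, *CG9447* at 1.54, *CG8620* at 1.42, *CG42565* at 1.37 and *CG17005* at 1.35, with the lipase gene *Lip1* at 1.58. Of these, *CG43095* and *CG17005* differed by similar amounts in the 4 backgrounds, from 1.44 to 1.90 and from 1.03 to 1.60. *CG42565* shares its whole length with *CG13510* and *CG13511* on the same strand. *CG43095* lies within *Usp12-46* and *CG7029*, and *CG31704* within *Pde1c*, each on the other strand, so these counts are uncertain. *CG31704*, *CG8620* and *Lip1* differed most in KL, by 3.07, 2.81 and 3.37, and by 0.26, 0.46 and 0.62 in M9. In the KL controls the differences were 2.66, −0.36 and 3.00. Deletion by treatment was not called for *CG31704* (edgeR, adjusted p = 0.146) or *Lip1* (adjusted p = 0.625), and was called for *CG8620* (adjusted p = 0.0421).

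*CG15097* had a smaller difference with little spread. It was measured at 38.8, 44.6 and 53.3 CPM in the deletion libraries and at 20.5, 28.2 and 36.7 CPM in the nondeletion libraries, which did not overlap. The log2 difference was 0.67 (SE 0.07, adjusted p = 0.000954), with 0.71 in M12, 0.50 in M9, 0.56 in C2 and 0.84 in KL. In the controls it was −0.10, and deletion by treatment was 0.76 (SE 0.10, adjusted p = 0.000598). *CG32137* (0.37) and the inward-rectifier potassium channel gene *Irk1* (0.62) shared an adjusted p of 0.00845. *Irk1* shares part of its length with *CG46310* on the same strand.

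Of the genes lower in the deletion lines, *Osi2*, a member of the Osiris family of cuticle-associated membrane proteins, fell furthest. It was measured at 0.293, 0.746 and 7.47 CPM in the deletion libraries and at 0.661, 2.94 and 15.95 CPM in the nondeletion libraries. The groups overlapped, and both M9 lines stood above the other backgrounds. Within each background every deletion library was below every nondeletion one. The log2 difference was −1.63 (SE 0.24, adjusted p = 0.0112), and in the controls it was −1.26 (adjusted p = 0.560).

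*Nplp2*, which encodes a neuropeptide-like precursor, was at 299, 478 and 987 CPM in the deletion libraries against 821, 1580 and 1770 CPM in the nondeletion libraries (log2 difference −1.32, SE 0.20, adjusted p = 0.0141). *apolpp*, the precursor of the apolipoproteins that carry lipid in the haemolymph and a fat body marker, was at 431, 886 and 1200 CPM against 1160, 1890 and 3070 CPM. It overlapped only through M9N1 and KL01 and differed by −1.17 (SE 0.19, adjusted p = 0.0170). *CG6293* was at 6.93, 7.70 and 13.6 CPM against 10.8, 15.2 and 23.2 CPM and differed by −0.94 (SE 0.12, adjusted p = 0.00657), from −0.62 in C2 to −1.43 in KL.

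The remaining large falls were seen for *Had1* (−1.23), a hydroxyacid dehydrogenase gene, *RabX5* (−1.16), the lipid phosphatase gene *laza* (−1.10), *CG2736* (−1.04), *CG43114* (−0.92), *CG43351* (−0.83), the chitin-binding gene *obst-A* (−0.80) and *CG16756* (−0.75). *CG3961* fell by 0.50 with the libraries almost apart, at 185 to 283 CPM against 275 to 353 CPM.

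**Figure D2:**
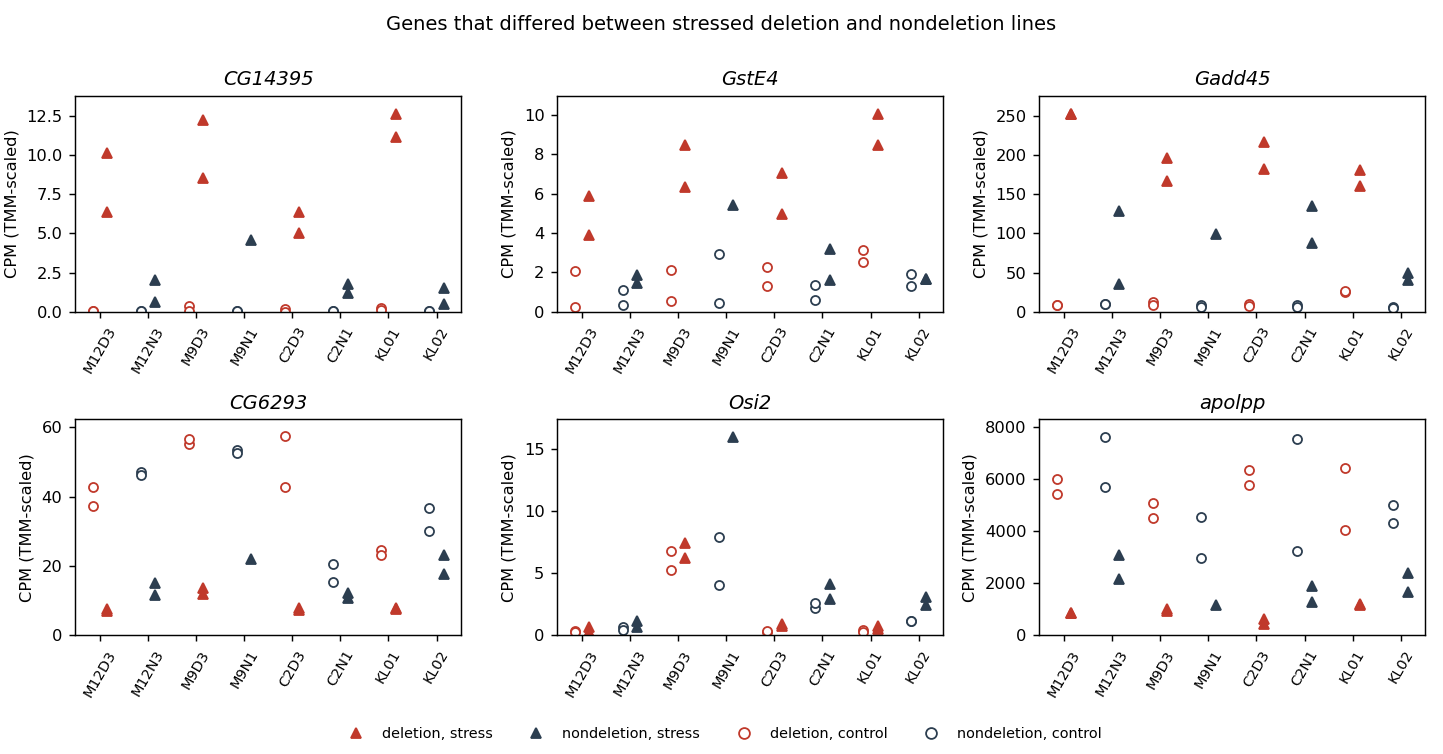
Level of *CG14395*, *GstE4*, *Gadd45*, *CG6293*, *Osi2* and *apolpp* in each library (y axis, CPM after TMM scaling; x axis, the 8 lines in pairs; symbols and colours by genotype and treatment as in the key). *CG14395* was at 5.05 to 12.6 CPM in stressed deletion libraries and at 0.476 to 4.58 CPM in nondeletion ones, and *apolpp* was at 431 to 1200 against 1160 to 3070 CPM.

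The sign was shared by all 4 backgrounds for 210 of the 221 called genes, 165 higher and 45 lower. Among all tested genes 932 (8.75%) were higher and 703 (6.6%) lower in all 4. Complete separation of the 15 libraries was rarer, with 22 of the called genes above and 5 below in every deletion library, against 29 (0.272%) and 8 (0.0751%) of all tested genes. The spread in the fit held differences between backgrounds, so the call itself favoured genes whose backgrounds agree. These shares are therefore no separate support for the calls. The size of the difference was not shared. KL had the largest absolute difference for 136 of the called genes, M12 for 60, M9 for 13 and C2 for 12, and M9 had the smallest for 117.

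The contrast within single backgrounds gave 585 called genes (5.49%) in M12, 258 (2.42%) in M9, 81 (0.76%) in C2 and 2956 (27.7%) in KL. In M9, where 1 nondeletion library was left, 92 calls (0.863%) were higher and 166 (1.56%) lower in the deletion line. In the other backgrounds higher calls were the more numerous, with 336 (3.15%) against 249 (2.34%) in M12, 51 (0.479%) against 30 (0.282%) in C2 and 1656 (15.5%) against 1300 (12.2%) in KL. In the controls the counts were 10, 218, 51 and 1130. Of the 221 genes called over the backgrounds, 169 were called the same way within KL, 104 within M12, 11 within C2 and 5 within M9. None was called in all 4, and *apolpp*, *CG6293*, *CG7702*, *topi* and *Whamy* were called in 3.

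**Figure D3:**
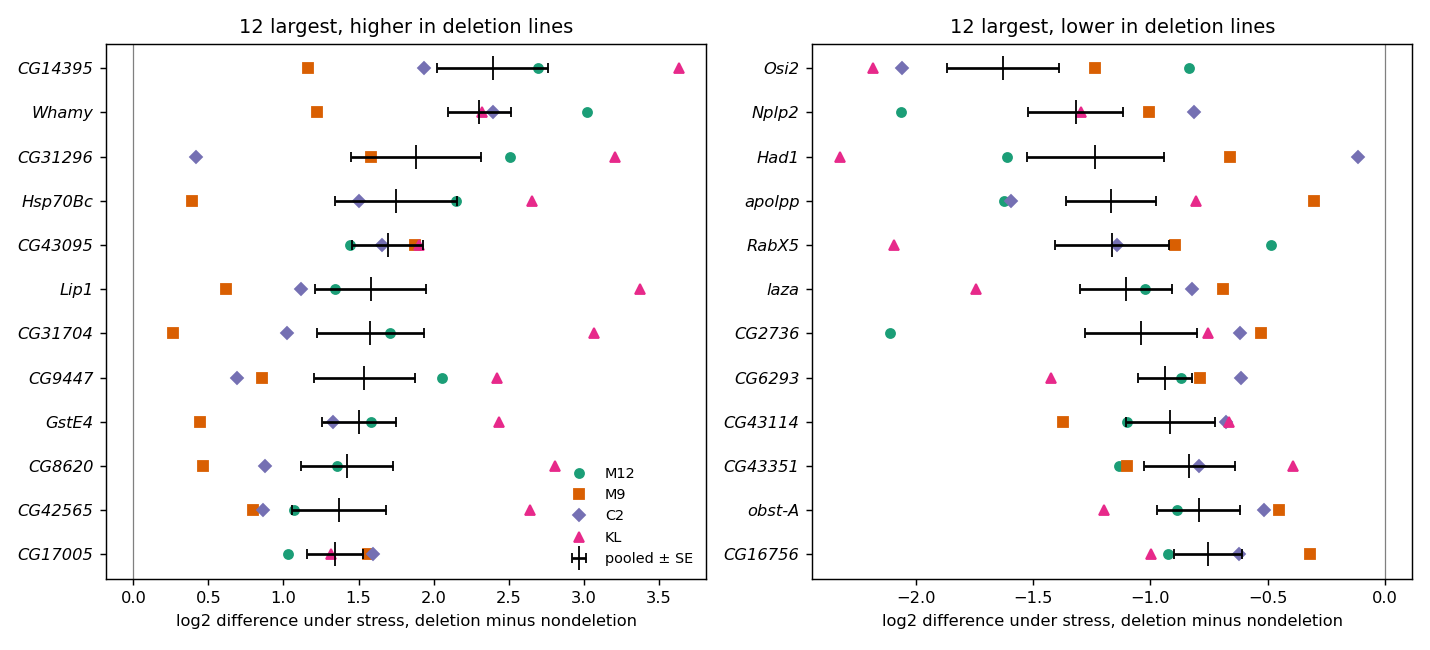
Log2 difference under stress, deletion minus nondeletion (x axis), for the 12 genes with the largest higher and the 12 with the largest lower difference among called genes with 1 sign in all 4 backgrounds. Coloured symbols give the 4 backgrounds and the black mark the pooled value with its SE. KL reached 3.63 for *CG14395* and 3.37 for *Lip1*, and M9 0.26 for *CG31704*.

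Genotype by background under stress passed the test for 1788 of 10657 genes (16.8%), and 37 of them were among the 221. The 5 with the smallest p had a line that stood apart. *CG12224* was at 0 and 0.189 CPM in M12N3 and at 0.559 and 0.141 CPM in KL02, and at 31.3 to 169 CPM in the other 11 libraries. *CG3397*, the next gene on 3R, was at 0.0266 and 0 CPM in KL02 and at 5.01 to 25.9 CPM elsewhere. Neither gene was called over the backgrounds. *CG7058* was at 2.02 and 2.43 CPM in KL02 against 29.8 to 42.9 CPM in the other lines, and the adenylate kinase gene *Adk3* was at 131 and 129 CPM in KL01 against 25.7 to 48.5 CPM. *nxf2*, which acts with the piRNA machinery, was at 126 and 165 CPM in KL02, at 74.8 and 88.6 CPM in M12N3 and at 8.76 to 44.5 CPM in the others.

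Deletion by treatment, the difference between the contrast under stress and in the controls, passed the test for 76 of 10918 genes (0.696%), with 56 positive (0.513%) and 20 negative (0.183%) values. Of these, 32 were among the genes called higher under stress and 9 among those called lower. *CG15097*, *Whamy*, *CG6293* (−1.13, SE 0.16, adjusted p = 0.00169) and *Socs36E* were among the 5 with the smallest p. *Socs36E*, a feedback inhibitor of JAK-STAT signalling, was at 92.0, 111 and 128 CPM in stressed deletion libraries and at 56.5, 82.2 and 102 CPM in nondeletion libraries, with a control range of 40.4 to 67.2 CPM over both genotypes. It differed by 0.44 (adjusted p = 0.0130) under stress and by −0.08 in the controls, which gave 0.52 (SE 0.08, adjusted p = 0.00269).

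Gene lists for the pathways of the stress response were read against the 1.63% of all tested genes that were called higher and the 0.441% called lower. Of 35 glutathione S-transferases, which conjugate glutathione to electrophiles, 3 (8.57%) were higher, none was lower and the median was 0.40 against −0.01 over all genes. The 3 were the neighbours *GstE4*, *GstE5* and *GstE6* on 2R. *GstE4* was at 3.91, 6.70 and 10.03 CPM in the deletion libraries and at 1.46, 1.68 and 5.40 CPM in the nondeletion libraries, where M9N1 was the highest, and differed by 1.503 (SE 0.25, adjusted p = 0.0170). *GstE5* differed by 0.47 and *GstE6* by 0.54. The median of the list was 0.61 in M12, 0.64 in KL, 0.31 in C2 and −0.17 in M9.

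Of 25 heat shock proteins, the chaperones of unfolded proteins, 2 (8%) were higher, against 1.63% of all genes, and the median was 0.66, with 1.07 in M12, 1.33 in KL, 0.10 in C2 and −0.04 in M9. The co-chaperone gene *DnaJ-1* ran from 197 to 863 CPM in the deletion lines and from 92.6 to 523 CPM in the nondeletion lines (0.78, SE 0.17, adjusted p = 0.0438). *Hsp70Bc* differed by 1.75 (SE 0.40, adjusted p = 0.0459), from 28.0 to 414 CPM against 3.59 to 184 CPM, but its near-identical copies in the genome make the count uncertain.

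The JNK pathway, which is switched on by oxidative damage, had 2 higher genes of 11 (18.2%, against 1.63% of all genes) and a median of 0.13. *Gadd45*, which responds to growth arrest and DNA damage, was at 161, 189 and 252 CPM in the deletion libraries against 35.9, 88.2 and 135 CPM in the nondeletion libraries, without overlap (1.33, SE 0.25, adjusted p = 0.0258). *Gadd45* differed by 1.88 in KL under stress and by 2.22 in the KL controls, and deletion by treatment was not called (edgeR, adjusted p = 0.326). The AP-1 subunit gene *kay* differed by 0.55 (SE 0.13, adjusted p = 0.0493), with 1.21 in KL and 0.01 in M9. Of 20 autophagy genes, *Atg7* (0.30, adjusted p = 0.0197) and *Atg18b* (0.35, adjusted p = 0.0248) were higher (10%) and the median was 0.08. *Socs36E* was the one call among 11 genes (9.09%) of the Turandot and JAK-STAT list, whose median was 0.13.

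Of 9 tested chymotrypsin and trypsin-like gut proteases, *Jon74E* (1.33), *Jon25Biii* (1.78) and *iotaTry* (1.07) were higher (33.3%, against 1.63% of all genes) and the median was 0.71. All 3 were below 1.1 CPM in each of the 15 stress libraries compared, and in the left-out library they were at 1.29, 1.85 and 1.16 CPM. Of 27 UDP-glycosyltransferases, which add sugars to lipophilic compounds, *Ugt35B1* was lower by 0.46 (adjusted p = 0.0383), which is 3.7% of the list against 0.441% of all genes, and the median was 0.27. Many calls behind these shares were lost in some of the 15 fits that each left out 1 library. *kay*, *MTF-1* and *Jon25Biii* were called in 2 fits, *Hsp70Bc* and *iotaTry* in 3, *DnaJ-1* and *GstE6* in 4, and *Ugt35B1* in 6. *GstE5* and *Jon74E* were called in 7, *Atg18b* in 9, *Atg7* and *Gadd45* in 10, *GstE4* in 14 and *Socs36E* in 15.

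No member was called in the remaining lists. Their medians were 0.16 for 11 genes of glutathione synthesis and the regulator *cnc*, −0.01 for 15 superoxide, peroxide and thiol enzymes, 0.16 for 79 cytochrome P450 genes, 0.05 for 37 proteasome genes, −0.10 for 79 genes of the respiratory chain and ATP synthase and −0.05 for 72 mitochondrial ribosomal proteins. The 86 cytosolic ribosomal proteins had a median of 0.17, and 85 of them had a value above 0, against 5058 of all 10657 genes, with no call. Their median was 0.26 in M12, 0.27 in C2, 0.29 in KL and −0.28 in M9. Antimicrobial peptides (17 tested) had a median of 0.57, which was 4.06 in KL and −0.84 in C2. The median was 0.15 for 22 Bomanin and peptidoglycan recognition genes, 0.01 for 23 genes of feeding state and fat, −0.11 for 10 clock genes, −0.03 for 30 odorant-binding proteins and 0.06 for 36 RR-domain cuticle proteins. In the controls 1 cuticle gene, *Cpr72Ec*, was the only call in any of these lists.

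**Figure D4:**
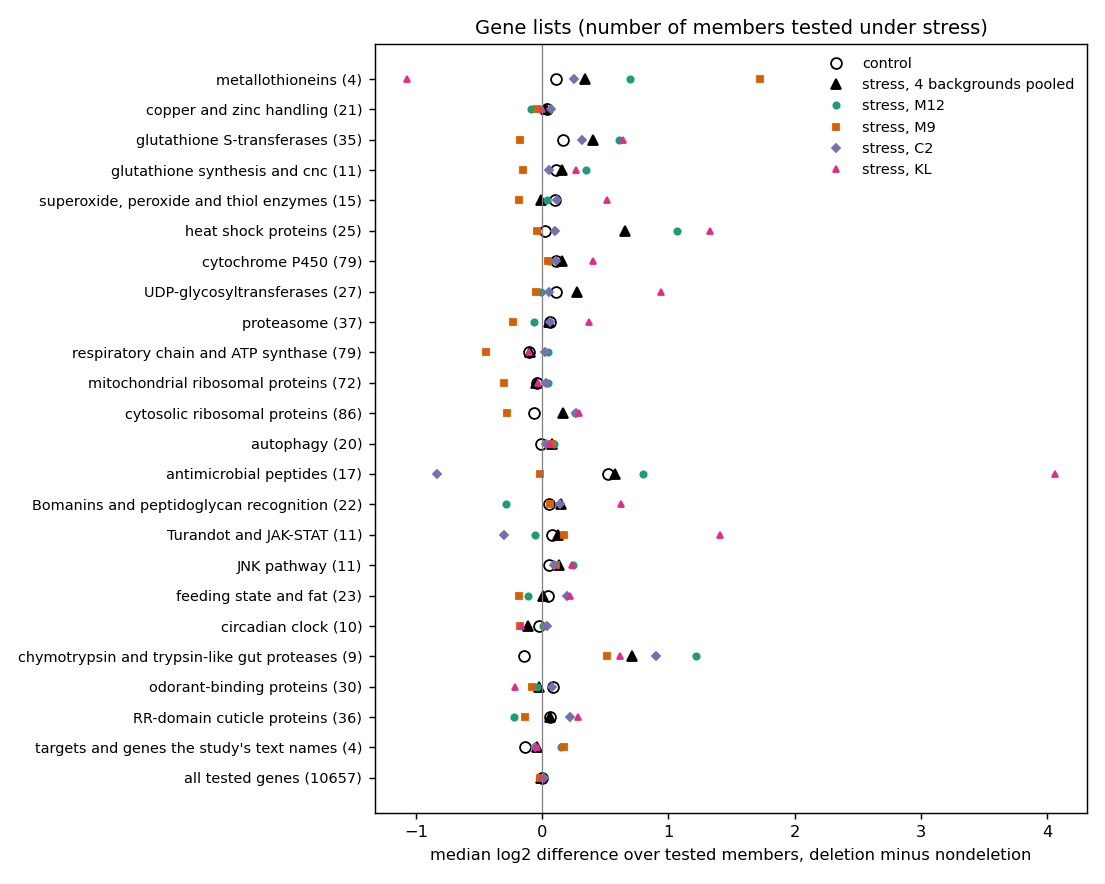
Median log2 difference, deletion minus nondeletion (x axis), over the tested members of each gene list (y axis, with the number tested under stress), for the pooled stress contrast, the controls and each background under stress. Heat shock proteins stood at 0.66 pooled and −0.04 in M9, and antimicrobial peptides at 4.06 in KL and −0.84 in C2.

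The called genes were then looked up in the Zambian lines, a part of the series that shares no library with this comparison, where stress was set against control after 18 to 20 h on MSB. All Zambian lines carried the nondeletion allele, and their numbers of stress libraries were unequal. In those lines 2333 of 10423 genes (22.4%) rose and 2324 (22.3%) fell. Of the 174 genes higher in deletion lines, 164 were tested there, and 144 rose and none fell, with a median of 0.94. Of the 47 lower genes, 40 fell and 1 rose, with a median of −0.53. Most of the called genes were thus among those that changed under MSB in the Zambian lines, in the direction of their difference between genotypes.

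The 100 genes that rose most in the Zambian lines were averaged in each library as a level of the response. They include *CG14395*, *Gadd45*, *GstE4* and *Hsp70Bc*, so the level is not independent of the called genes. Under stress it ran from 5.63 to 6.38 (mean log2 CPM) with a median of 6.06 in the deletion libraries, and from 3.72 to 6.28 with a median of 4.96 in the nondeletion libraries. The controls ran from 1.81 to 3.11. The difference between the lines of a pair was 1.71 in KL, 1.37 in M12, 0.56 in C2 and 0.01 in M9. The lowest libraries were M12N3 replicate 2 at 3.72 and KL02 replicate 2 at 3.78, and the other replicates of these lines stood at 4.96 and 4.88. How much of the difference between genotypes went with this level was not tested, since the level is itself an outcome of the stress.

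Of 6 fat body markers, 1 was called, *apolpp*, which was lower in the deletion lines (16.7%, against 0.441% of all genes called lower). In bulk heads, fewer cells of a type and less RNA per cell cannot be told apart. Together the 6 markers summed to 1368 to 2041 CPM with a median of 1578 in the deletion lines and to 1928 to 4755 CPM with a median of 3159 in the nondeletion lines, against 5943 to 13560 CPM in the controls of both. *apolpp* alone had medians of 886 and 1890 CPM under stress. The median difference of the 6 was −0.46 with −1.02 in M12 and 0.18 in KL. Of the 6, 5 were below 0, and *fit* went the other way at 0.94 (edgeR, adjusted p = 0.0710). The part of fat body RNA in the falls of *apolpp* and the other lower genes was not tested.

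The summed level of 11 photoreceptor markers was 55330 to 74540 CPM in the deletion lines and 54030 to 90390 CPM in the nondeletion lines, and of 6 neuronal markers 2706 to 3945 and 3149 to 4344 CPM. Glia (6 markers) ran from 1655 to 2623 and from 1514 to 2593 CPM, and haemocytes from 39.4 to 283.6 and from 63.35 to 185.5 CPM. Muscle ran from 1066 to 1406 and from 948.6 to 1779 CPM. The gut markers reached 256.3 to 485.6 and 238.2 to 394.8 CPM, and those of the female germ line and yolk 24.12 to 70.01 and 21.35 to 71.87 CPM. The testis and accessory gland markers were at 2.75 to 5.82 CPM in the deletion lines and at 1.64 to 3.82 CPM in the nondeletion lines. The median difference was −0.09 over the 6 neuronal markers, all below 0, and −0.10 over the 6 glial markers, 5 below 0. It was −0.14 over the 11 photoreceptor markers, 10 below 0, and −0.22 over the 5 muscle markers tested, all below 0. None of these was called. Over the 13 gut markers tested the median was 0.71, with 12 above 0 and 1 called (7.69%, against 1.63% of all genes called higher). Over the 2 testis and accessory gland markers tested it was 1.13, with 1 called (50%). The 5 female germ line and yolk markers tested had a median of 0.29, 3 above 0, and none was called. The part of these markers in the called genes was not tested. Among single markers, *He* of haemocytes (0.92) and *Acp24A4* of the accessory gland (1.59) were called higher, both at less than 1.5 CPM, and so was *Jon25Biii*, which is also among the gut markers. *He*, the 1 call of its list (16.7%), did not stand for it, as 4 of the 6 haemocyte markers were below 0 and 2 above, with a median of −0.18.

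**Figure D5:**
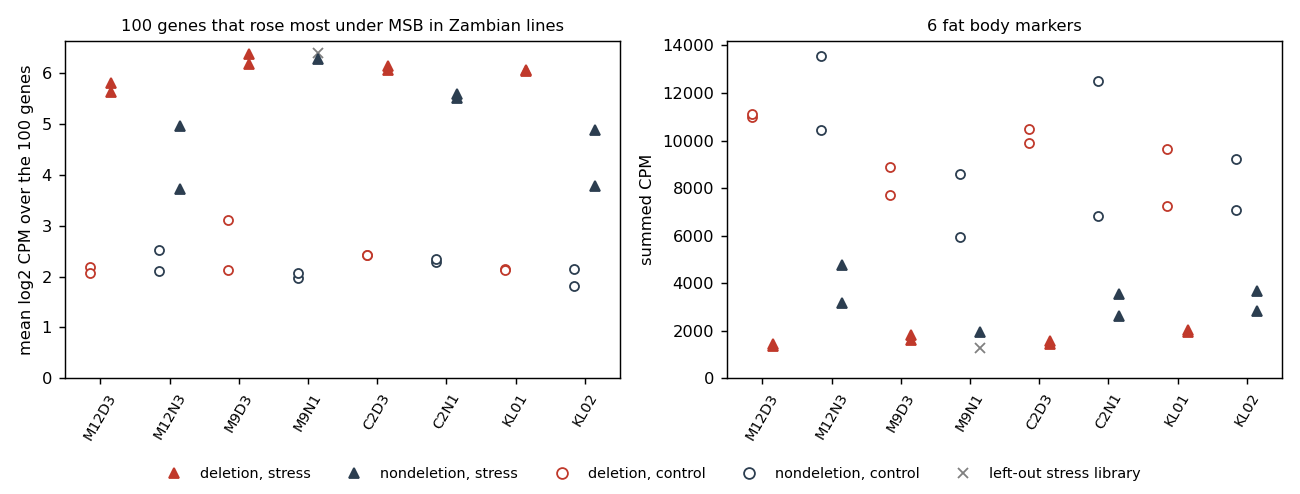
Left, mean log2 CPM of the 100 genes that rose most under MSB in the Zambian lines; right, summed CPM of 6 fat body markers, both for each library of the 8 lines (x axis), with the left-out M9N1 stress library as a grey cross. Stressed deletion libraries sit between 5.63 and 6.38 on the left and between 1368 and 2041 on the right, and the nondeletion libraries M12N3 and KL02 have the lowest response levels.

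The count of called genes hung on single libraries and backgrounds. Leaving out 1 library at a time gave from 23 calls (without M12D3 replicate 1) to 1133 (without the single M9N1 library), and 21 genes were called in all 15 of these fits, 17 higher and 4 lower. They were *Whamy*, *CG15097*, *CG6293*, *CG32137*, *Irk1*, *prage*, *topi*, *CG17005*, *CG43095*, *insc*, *Osi2*, *dmt*, *CG7702*, *Socs36E*, *Nplp2*, *CG14395*, *Tep4*, *Pvr*, *raw*, *CG8907* and *CG3961*. Without the M12 pair 4 genes were called, without M9 742, without C2 122 and without KL 14. *Whamy* and *CG15097* were called in each of these 4 fits.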

How the data were processed

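RNA-seq was made from pooled heads of 12 lines with and without MSB, and 31 libraries of 8 lines entered the comparisons here, with 16 libraries of the Zambian lines for the lookup of the MSB response. The authors mapped reads to the FlyBase transcriptome with NextGenMap and deposited raw read counts per gene. The counting program and its use of strand and of multiple hits are not given in the sources used here, so overlapping genes and near-identical copies are uncertain. The submitters' processing notes name DESeq2 1.28.1 and R 4.0.0. The length column was not used, and 0 sample columns were unmapped. Of 13957 genes, 13908 were matched by ID and 43 by CG number to annotation BDGP6.54, and 6 by neither.

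Counts were filtered (filterByExpr), TMM-scaled and tested with edgeR 4.0.16 (R 4.3.3), with p-values adjusted across every gene in the fit (Benjamini-Hochberg) and called at 0.05, two-sided. The fits were background plus genotype (stress, control), line and background by treatment plus deletion by treatment, background by genotype, and 1 group per line for single backgrounds, where the single M9N1 library is assumed to vary like the others. Levels are CPM after 1 TMM scaling over 31 libraries, and marker sums use raw library totals. Replicates are separate pools of flies. The rule left out M9N1 stress replicate 1. A called gene that the rule for named genes takes in is not reported here.

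Members, gene lists and tests were chosen with earlier results of these data known. Named were the 12 largest differences per direction among called genes of mean log2 CPM of at least 1 with 1 sign in 4 backgrounds, the 5 smallest p per direction and per interaction, metallothioneins, 5 genes of the study's text and up to 4 members per list. Genes near *MtnA* other than those, the genes called in all leave-one-out fits, *Pvr*, *raw*, *Mmp1*, *scb*, *Rel*, *spz*, *Myc*, *eya*, *so*, *disco*, *He* and *Acp24A4* and the use of the Zambian lines were chosen after the values had been seen. *Acp1* and *Acp65Aa*, cuticle genes, were dropped from the accessory gland markers. Alternatives used DESeq2 1.42.0 and limma 3.58.1. Scripts were tested on simulated data. Matches to miRNA seeds were not run, as no genome sequence was used here.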

Additional observations from a re-analysis of the deposited data

Results flagged for a closer look

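Of 154 groups tested for a library far from the rest, 11 had one. A chance rate of about 1 in 20 assumes independent values, but each group mixed libraries of 4 lines, so the count cannot be read against it. M9N1 had 1 library here, so a difference of that line cannot be told apart from an odd library. In nondeletion lines under stress, M9N1 replicate 2 was the highest for *Fst* (1.68 CPM), *CG14395* (4.58 CPM), *Osi2* (15.95 CPM), *kay* (501 CPM) and *Jon74E* (0.584 CPM). M12N3 replicate 1 was the highest for *MtnE* (21.3 CPM) and *CG43095* (3.00 CPM), M12N3 replicate 2 for *CG2736* (148 CPM), and KL02 replicate 1 the lowest for *dmt* (8.97 CPM). In deletion lines C2D3 replicate 1 was the highest for *CG43351* (4.46 CPM) and the lowest for *CG7058* (29.8 CPM).

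The difference between genotypes itself differed between stress and control for 76 genes (edgeR, adjusted p below). Near *MtnA* these included *Whamy* (0.000598), *CG12814* (0.0054) and *topi* (0.0492). Higher genes further away included *CG15097* (0.000598), *Socs36E* (0.00269), *prage* (0.0054), *kay* (0.0054), *Pvr* (0.00708), *CG43095* (0.00872), *scb* (0.00911), *raw* (0.0154), *CG8620* (0.0421), *Atg18b* (0.0421) and *insc* (0.0492). Lower genes included *CG6293* (0.00169), *Nplp2* (0.00708), *CG2736* (0.01004), *apolpp* (0.0141), *laza* (0.0141) and *RabX5* (0.023).

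It differed between the 4 backgrounds for 1788 genes under stress. The smallest adjusted p of edgeR was 6.64e-06, shared by *CG12224*, *CG3397*, *CG7058* and *nxf2*, and *Adk3* had 7.95e-06. Of the 221 called genes 37 were among them, including *Mmp1* (0.00294), *kay* (0.00382), *Fst* (0.00477), *Had1* (0.0176), *scb* (0.0198), *Whamy* (0.0327), *CG31704* (0.0392), *CG8620* (0.0394), *CG3961* (0.0432), *DnaJ-1* (0.0432) and *topi* (0.0465). *per* (0.0137) and *MtnF* (0.0258) were not called over the backgrounds.

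Outside the comparison, the left-out M9N1 stress library held 2649 CPM of testis and accessory gland markers.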

How the results depend on the processing

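The 221 calls under stress became 1008 with DESeq2, which held all 221, 1701 with 1 group per line, 12 with all 16 stress libraries, 10 at a threshold of 0.01, 0 with line sums, and 2 each with the line as a random block (limma) or no background block. They were 4 without M12, 742 without M9, 122 without C2 and 14 without KL. Leaving out 1 library gave 23 to 1133. Counts moved by over 1.5 times without M12D3 replicate 1 (23) or 2 (36), M12N3 replicate 2 (49), M9D3 replicate 1 (79) or 2 (142), M9N1 replicate 2 (1133), C2D3 replicate 2 (82), C2N1 replicate 1 (147) or 2 (86), KL01 replicate 1 (34) or 2 (27), and KL02 replicate 1 (98) or 2 (37). The cause was not tested.

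The 6 control calls were 22 with DESeq2, 10 with no filter, 0 at 0.01, with line sums, and without M9, C2 or KL, and 0 to 5 without 1 library. The 76 deletion by treatment calls were 272 with DESeq2, 20 at 0.01, 30 with all 32 libraries, 15 with no background by treatment term and 11 without KL. The 1788 genotype by background calls were 296 without KL and 1088 to 2211 without 1 library, with no fit without the single M9N1 library. For single backgrounds, alternatives were chosen after seeing the data: M12, M9, C2 and KL had 110, 930, 31 and 1634 calls with all 16 libraries, 23, 73, 31 and 1546 at 0.01, and 12 to 1119, 77 to 312, 26 to 106 and 1675 to 3284 without 1 library.

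A replicate block gave 4 calls under stress (*Whamy*, *CG15097*, *CG17005* and *CG43095*) and 0 in the controls. Pairing by replicate number was not uniform. The correlations of the deviations were −0.13 in M12, −0.31 in C2 and 0.11 in KL under stress. In the controls they were 0.18, 0.26, 0.44 and −0.13 in M12, M9, C2 and KL.

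Of 60 called named genes none reversed. This is no separate support, since the alternatives largely refit the libraries in which these genes were called. Those named for the largest differences also had to share their sign in every background. Over 29 alternatives of the stress comparison, called named genes lost their call 879 times, and named genes not called gained one 179 times. Among named genes not called, 18 values changed sign. *MtnF* was at −0.36 with 16 libraries, −0.00545 with no block, −0.17 without M12, −0.0296 without M9, and −0.0406 to 0.11 without 1 library. *MtnD* was at −0.00173 without M12, −0.17 without M9 and −0.146 to 0.67 without 1 library. *CG3397* was at −0.15 with limma, −0.55 without KL and −0.0242 to 1.03 without 1 library, *COX7CL* at −0.0037 with 16 libraries, and *alph* at −0.0338 and *per* at 0.0674 without KL. The miRNA seed comparison was not run.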

Other observations

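Further called genes were looked at after their values had been seen, so they stand as single genes and as no group. *Pvr*, a receptor tyrosine kinase, was at 158, 169 and 201 CPM (lowest, median and highest) in stressed deletion libraries and at 94.1, 126 and 141 CPM in nondeletion libraries, without overlap (log2 difference 0.51, SE 0.08, edgeR adjusted p = 0.0141). *raw*, which restrains JNK signalling in the embryo, overlapped slightly, at 197 to 260 against 113 to 198 CPM, and differed by 0.54 (adjusted p = 0.0141). *insc*, which acts in spindle orientation, did not overlap, at 29.4 to 35.2 against 9.02 to 23.3 CPM, and differed by 1.07 (adjusted p = 0.00952). In KL *insc* differed by 1.68 under stress and by 1.52 in the controls, and in the controls of the other pairs by −0.09 to 0.07. It shares part of its length with *sktl* on the same strand.

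The matrix metalloprotease gene *Mmp1* (0.72, adjusted p = 0.0474) and the integrin gene *scb* (0.75, adjusted p = 0.0357) differed most in KL, by 1.58 and 1.46, and least in M9 and C2, by 0.05 and 0.31. *Rel*, the NF-κB factor of the Imd pathway, was higher by 0.60 (adjusted p = 0.0432), *spz*, the ligand of Toll, by 0.62 (adjusted p = 0.0357) and the growth regulator *Myc* by 0.61 (adjusted p = 0.0161). *Rel* shares its whole length with *Nmdmc* on the same strand.

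The lower genes *eya*, *so* and *disco* encode transcription factors or cofactors known from the eye or optic lobe. How many such factors were tested was not counted, so they too stand as single genes. They were called in 4, 3 and 4 of the 15 fits without 1 library. None of the 11 photoreceptor markers was called, but 10 were below 0 and 1 above, with a median of −0.14. *eya* was at 30.5 to 41.6 CPM in the deletion lines and at 38.7 to 58.2 CPM in the nondeletion lines and fell by 0.45 (adjusted p = 0.0376). *so* fell by 0.24 (adjusted p = 0.0439) and *disco* by 0.48 (adjusted p = 0.0439), with −0.80 in KL and −0.05 in M9.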
